A study of Mus musculus with 9 samples.

Results

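The dual-specificity MAPK phosphatases (DUSPs) are enzymes that switch off MAP kinases, the kinases that carry signals from growth factor, cytokine and pattern receptors into the cell. A MAP kinase is active when a threonine and a tyrosine of its activation loop both carry phosphate, and a DUSP removes both. Several DUSP genes are themselves switched on by the pathway that their product ends, so that they form a negative feedback, and in Mϕs they are best known for limiting how long ERK, JNK and p38 stay active. Described here are 9 of these genes, Dusp1, Dusp2, Dusp3, Dusp4, Dusp5, Dusp6, Dusp7, Dusp10 and Dusp16, of the 53379 genes in the deposited table. They were given by name, as DUSPs that act on MAP kinases, and do not take in every gene of that kind.

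The libraries are poly(A) RNA-seq of bone marrow (BM)-derived Mϕs from 3 C57BL/6 mice, with no genetic change. All cells received 10 ng/ml MCSF (CSF-1), the growth factor that turns BM cells into Mϕs, for 3 days and through the treatment that followed. For the next 4 days the Control group had MCSF alone, the IL-4 group also had 10 ng/ml IL-4, and the IL-6 group also had 100 ng/ml IL-6, as the labels give it. The study's methods differ from this in the IL-4 dose, given there as 100 ng/ml. Its figure legends give another dose and time for both cytokines. Each group has 3 libraries, numbered #1 to #3, and the same number was taken to mark the same mouse. IL-4 is the standard inducer of the M2 state of Mϕs, and the comparison asks how far the effect of IL-6 resembles it.

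The values are FPKM, that is, fragments scaled by gene length and library size. Levels of different genes and libraries can then be set side by side, but each value is relative to the total of its library. Another scaling moved the comparisons with IL-4, as given under the dependence on processing. The libraries held 29988160 to 39909571 fragments. Of all genes, the 12824 with a mean of at least 0.5 FPKM over the 9 libraries were tested, and all 9 DUSP genes passed that filter. Log2 fold changes are of FPKM + 0.1, and a gene passed at an adjusted p under 0.05 in limma with Benjamini-Hochberg adjustment over all 12824 genes, the source of all adjusted p-values below. An exact permutation test of 3 libraries against 3 cannot give a two-sided p below 0.1.

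The libraries differ in ways other than treatment. Paneth and goblet cell transcripts of the intestine, 16 genes that Mϕs should not express, summed to 36.1 to 53.6 FPKM in the Control libraries and IL-4 #1, and to 0.0139 to 0.110 FPKM in IL-4 #2, IL-4 #3 and the IL-6 libraries. Some skeletal muscle transcripts differed between these libraries as well. Myh1 and Myl1, singled out after their values were seen, were at 0 in the Control libraries and IL-4 #1. In the other 5 they were at 0.302 to 0.511 and 0.675 to 1.27 FPKM. All 18 muscle genes summed to 15.6 to 16.8 FPKM in control, 8.57 to 16.7 with IL-4 and 20.1 to 26.8 with IL-6. As a list they were thus above control only with IL-6, and no IL-4 library lay above the control range. This division into 2 sets of libraries cannot be told apart from the difference between IL-6 and control, and values within a set, or with the set as a term, stand beside the results they alter. The Control libraries all lie in the set of IL-4 #1, and the IL-6 libraries all in that of IL-4 #2 and #3. A term for the set is thus estimated from IL-4 #1 against IL-4 #2 and #3 alone. For IL-6 against control it carries that IL-4 difference over, and is no measured correction. IL-4 #3 stood apart from the other IL-4 libraries: without it, 4827 genes passed for IL-4 against control, and with it 3186. All 7 Mϕ markers were present, with sums of 16540 to 18820 FPKM in control, 6006 to 7028 with IL-4 and 20050 to 21170 with IL-6. Most of these sums is Lyz2 (means 14580, 5053 and 18490 FPKM). The receptor gene Csf1r had means of 632, 278 and 615 FPKM, Cd68 of 1513, 850.0 and 952, Adgre1 of 447, 193 and 409, and Itgam of 35.3, 60.1 and 66.6. The 10 markers of neutrophils and their precursors, none at 0, summed to 4816 to 8523, 2169 to 3995 and 8068 to 11160 FPKM, and the 4 of mast cells and basophils, none at 0, to 5.31 to 11.5, 28.8 to 46.4 and 2.78 to 8.69 FPKM. The 5 B cell markers, none at 0, summed to 27.7 to 50.4, 22.9 to 31.2 and 19.6 to 33.0 FPKM, ranges that overlapped. The part of these cells in the results was not tested. In bulk RNA, fewer cells of a type and less RNA per cell cannot be told apart. As a check of the treatments, Socs3, the feedback inhibitor induced by STAT3, rose with IL-6 (log2 fold change 5.12), and Arg1, the arginase of M2 Mϕs, rose with IL-4 (10.58).

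The sequence in front of a gene shows which response elements its start site carries. RefSeq windows on GRCm38.p6, of the 250 bases before the start, were at hand for 8 of the 9 genes, all but Dusp4, and were searched on both strands for the cAMP response element TGACGTCA, its shorter form TGACGTC (which the full one contains), the AP-1 site TGANTCA, the STAT site TTCNNNGAA, the STAT6 site (the same with a spacer 1 base longer), the ETS site CCGGAAG, and the CArG box bound by serum response factor. Dusp1 alone held the cAMP response element, a site of CREB found in 1.55% of 32851 windows, from 143 to 136 bases before its start. It also held a separate shorter form (2.78% of windows) from 191 to 185 bases before. Dusp5 alone held CArG boxes (1.47% of windows), and held 2 of them end to end, from 82 to 63 bases before its RefSeq start. For Dusp3, Dusp5, Dusp10 and Dusp16 the RefSeq start differs from the GENCODE gene coordinates given below. The Dusp3 and Dusp10 windows lie inside those coordinates. No window of the 8 genes held the AP-1 site (6.75% of all windows), either STAT site (7.02% and 5.85%) or the ETS site (6.91%). A match is a match of letters and no proof of binding. Only the letters given were searched, so an ETS, AP-1 or STAT site of another form was not counted. The bases from 200 to 51 before the start are printed for Dusp1 and Dusp5, which carry these elements, and for Dusp16 and Dusp7, whose levels moved with 1 of the cytokines and whose windows held none. Each is written 5′ to 3′ on the gene's own strand, in lower case with matches in capitals, and lies at chr17:26508523-26508672 (minus strand), chr19:53528945-53529094 (plus), chr6:134792679-134792828 (minus) and chr9:106368432-106368581 (plus).
Dusp1: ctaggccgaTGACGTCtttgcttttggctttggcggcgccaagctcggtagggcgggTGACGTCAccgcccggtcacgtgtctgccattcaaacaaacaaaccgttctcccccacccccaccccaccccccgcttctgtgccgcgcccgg
Dusp5: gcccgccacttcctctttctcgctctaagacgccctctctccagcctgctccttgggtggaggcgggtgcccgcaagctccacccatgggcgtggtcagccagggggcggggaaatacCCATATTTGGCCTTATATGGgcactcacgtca
Dusp16: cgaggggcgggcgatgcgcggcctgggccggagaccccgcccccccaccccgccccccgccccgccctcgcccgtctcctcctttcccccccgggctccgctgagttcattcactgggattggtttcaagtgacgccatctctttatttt
Dusp7: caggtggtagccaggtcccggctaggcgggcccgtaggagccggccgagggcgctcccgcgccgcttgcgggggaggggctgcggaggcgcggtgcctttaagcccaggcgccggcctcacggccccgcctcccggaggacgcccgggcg

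In control Mϕs the 9 genes spanned a wide range of levels. Dusp3 was the highest at 41.5 ± 3.26 FPKM (SD, n = 3), followed by Dusp7 at 16.3 ± 1.34 and Dusp1 at 8.11 ± 0.514, and in each case all libraries of the higher gene lay above all those of the next. Dusp2 (5.60 ± 0.851) and Dusp6 (5.00 ± 0.724) overlapped each other. Dusp5 followed at 2.86 ± 0.541 FPKM, and Dusp16 (1.17 ± 0.184), Dusp4 (1.01 ± 0.189) and Dusp10 (0.783 ± 0.286) formed the lowest group, with neighbours overlapping. Against this order, Dusp4 went from the eighth place in control to the third with IL-4 and to the last with IL-6.

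With IL-4, 3 of the 9 genes passed, beside 24.8% of all genes tested (8.55% higher, 16.3% lower): Dusp4 and Dusp10 rose and Dusp7 fell. The IL-4 and control libraries did not overlap for 6 of the 9, beside 40.3% of all genes. With IL-6, 3 of the 9 passed, beside 8.4% of all genes (4.58% higher, 3.82% lower): Dusp1 and Dusp16 rose and Dusp2 fell. The IL-6 and control libraries did not overlap for 8 of the 9, beside 43.2%. Between IL-6 and IL-4, 4 of the 9 passed, beside 34.1% (20.8% higher, 13.3% lower): Dusp6, Dusp7 and Dusp16 were higher with IL-6 and Dusp4 was lower, and the libraries did not overlap for 6 of the 9, beside 56.9%. Over the 9 genes the log2 fold changes had a median of −0.16 (IL-4) and 0.27 (IL-6) relative to control and 0.30 between the cytokines, beside −0.20, −0.00 and 0.22 over all genes tested. The comparisons of IL-4 and IL-6 with control share the control libraries.

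**Figure D1:**
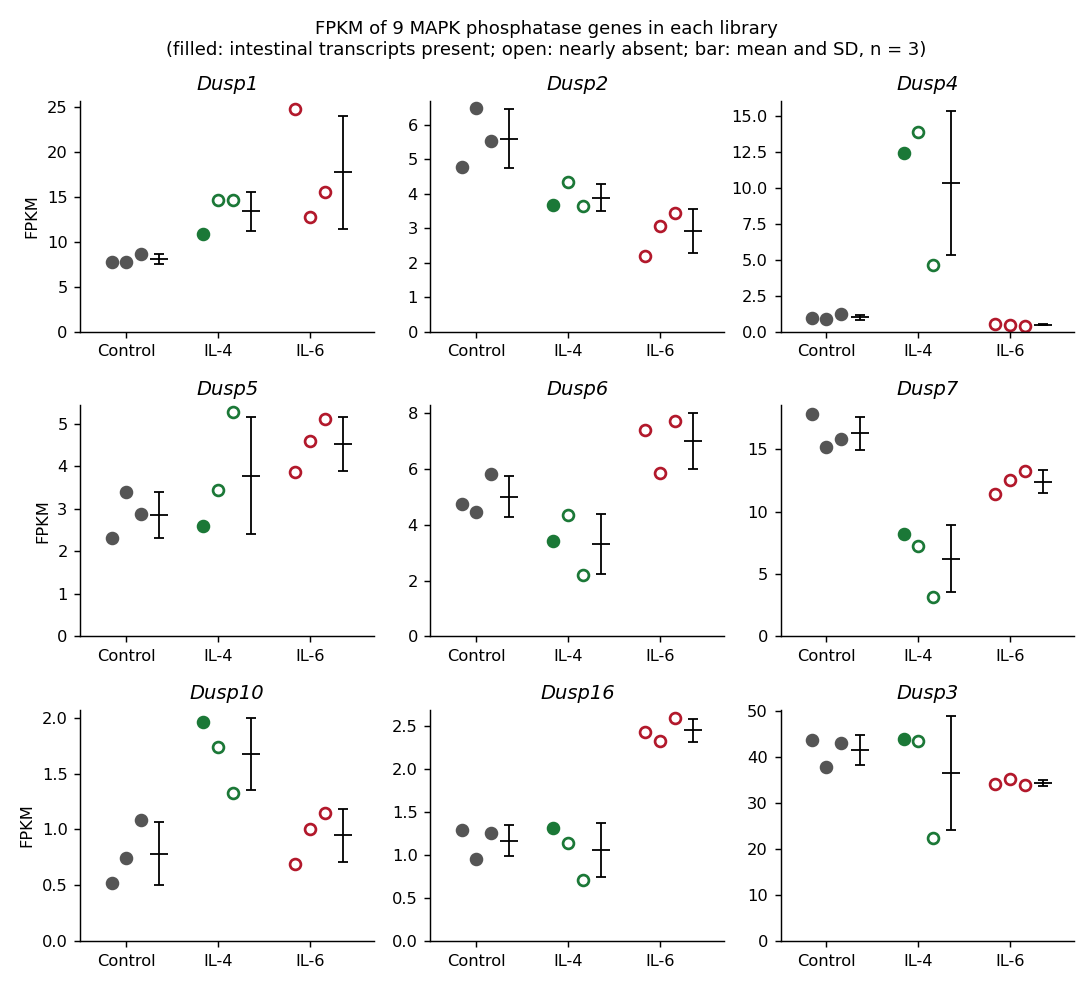
FPKM of each of the 9 genes in each library, by group (horizontal axis), with the mean and SD of 3 libraries as a bar. Filled points are libraries with intestinal transcripts and open points those nearly without. Dusp4 stands at 4.63 to 13.9 FPKM with IL-4 and at no more than 1.23 elsewhere, and each Dusp16 value with IL-6 lies above every value of the other groups.

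The nuclear, inducible DUSPs come first, beginning with Dusp4 (MKP-2; chromosome 8, 34807297 to 34819894, plus strand), which dephosphorylates ERK and JNK in the nucleus. It stood at 0.931, 0.876 and 1.23 FPKM in the control libraries, at 12.5, 13.9 and 4.63 with IL-4, and at 0.523, 0.503 and 0.440 with IL-6. All IL-4 libraries lay above all others, IL-4 #3 the lowest of them, and all IL-6 libraries lay below control. These values rest on 72 to 118 fragments in control, 506 to 1168 with IL-4 and 37 to 50 with IL-6. Dusp4 was 10.2-fold higher with IL-4 than in control (log2 fold change 3.09, SE 0.386, adjusted p = 7.82e-04), and 21.2-fold higher with IL-4 than with IL-6 (log2 fold change of IL-6 against IL-4 −4.00, SE 0.386, adjusted p = 1.48e-04). Both differences passed in each of the 9 fits without 1 library. IL-4 #1, which shares the intestinal transcripts with control, was 12.3-fold above the control mean. Against control, the level with IL-6 was 0.483 of control (log2 fold change −0.91, SE 0.386, adjusted p = 0.226). This difference passed without IL-4 #3, which takes no part in it but in the estimate of spread (adjusted p = 0.00518), while a term for the set gave −0.28.

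Dusp1 (MKP-1; chromosome 17, 26505591 to 26508472, minus strand) is an immediate-early gene whose product acts on p38 and JNK in the nucleus and restrains cytokine production by Mϕs. It stood at 7.81, 7.83 and 8.71 FPKM in control, at 10.9, 14.7 and 14.6 with IL-4, and at 24.9, 12.8 and 15.6 with IL-6. Every library with either cytokine lay above every control library, the libraries of the 2 cytokines overlapped, and IL-6 #1 was the highest of all. Against control, Dusp1 was 2.19-fold higher with IL-6 (log2 fold change 1.06, SE 0.242, adjusted p = 0.0331). With IL-4 it was at 1.65 times control and did not pass (log2 fold change 0.71, SE 0.242, adjusted p = 0.0670). It passed for IL-4 without IL-4 #1 (0.0492) or IL-6 #1 (0.0225). Rescaling each library by its median ratio brought IL-4 to 0.0490 and IL-6 to 0.0563. Dusp1 differed between the cytokines by 0.36, with a 95% interval of −0.20 to 0.91 (adjusted p = 0.264). The rise with IL-6 did not pass without Control #1, Control #2, Control #3, IL-4 #2, IL-6 #1 or IL-6 #3 (adjusted p 0.0523 to 0.119), with the mouse as a block (0.0696), or with a set term (log2 fold change 0.64, adjusted p = 0.340).

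Dusp2 (PAC-1; chromosome 2, 127336159 to 127338376, plus strand), a nuclear phosphatase of activated leukocytes, went the other way. It stood at 4.78, 6.48 and 5.54 FPKM in control, at 3.67, 4.33 and 3.65 with IL-4, and at 2.204, 3.073 and 3.446 with IL-6. The 3 groups did not overlap, with control the highest and IL-6 the lowest. Dusp2 fell with IL-6 to 0.520 of control (log2 fold change −0.93, SE 0.198, adjusted p = 0.0247), and the mouse as a block gave 0.0236. With IL-4 it was at 0.694 of control (log2 fold change −0.51, SE 0.198, adjusted p = 0.0967). Between the cytokines it did not pass (−0.42, adjusted p = 0.126), but did with median-ratio rescaling (−0.62, 0.0427) and quantile normalization (−0.71, 0.0356). The fall with IL-6 did not pass without Control #2, Control #3, IL-6 #1 or IL-6 #2 (adjusted p 0.0776 to 0.107), nor with a set term (log2 fold change −1.05, adjusted p = 0.222).

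Dusp5 (chromosome 19, 53529109 to 53542431, plus strand), the nuclear phosphatase selective for ERK, passed in none of the comparisons. It stood at 2.32, 3.40 and 2.87 FPKM in control, at 2.603, 3.442 and 5.28 with IL-4, and at 3.86, 4.58 and 5.11 with IL-6. All IL-6 libraries lay above control, and IL-4 overlapped both. The log2 fold change for IL-6 against control was 0.65 (95% interval 0.04 to 1.26, adjusted p = 0.210). Without IL-4 #3 its adjusted p was 0.0345, and a set term gave a log2 fold change of −0.04. For IL-4 against control the log2 fold change was 0.35 (95% interval −0.27 to 0.96, adjusted p = 0.383).

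**Figure D2:**
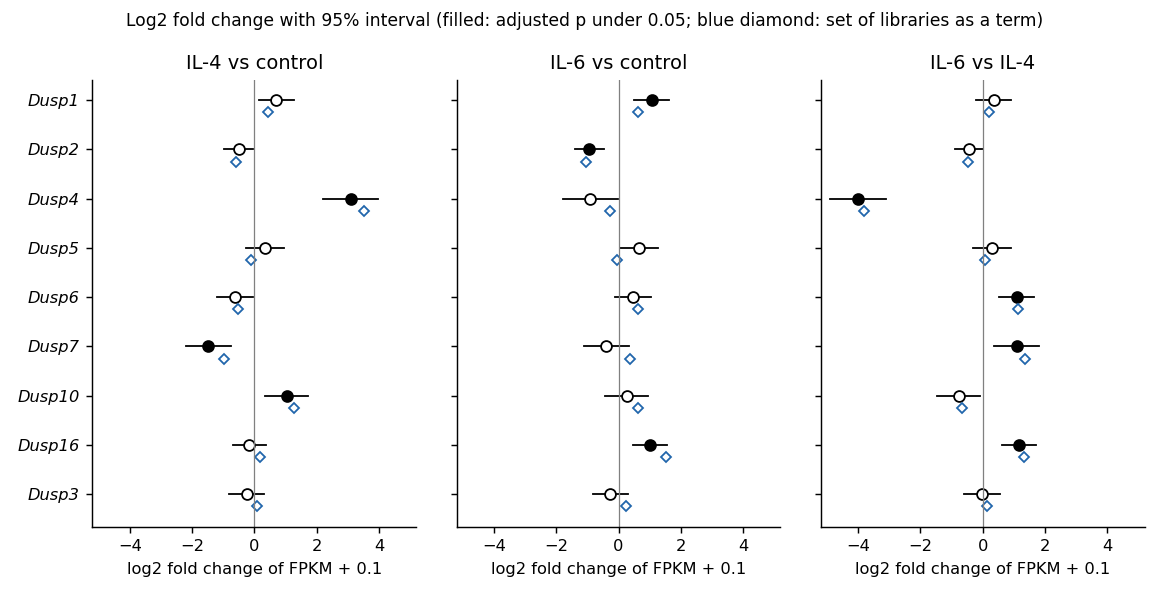
Log2 fold change of FPKM + 0.1 (horizontal axis) of the 9 genes in each comparison, with its 95% interval as a line and filled points where the adjusted p was under 0.05. Blue diamonds give the value with a term for the set, which is estimated from the IL-4 libraries alone. For Dusp4 the diamonds lie at 3.51 and −3.79 for IL-4 against control and IL-6 against IL-4, and for Dusp7 with IL-6 against control the diamond lies on the other side of 0, at 0.38.

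The cytoplasmic phosphatases Dusp6 and Dusp7 act on ERK. Dusp7 (MKP-X; chromosome 9, 106368632 to 106375724, plus strand) stood at 17.8, 15.2 and 15.8 FPKM in control, at 8.24, 7.24 and 3.17 with IL-4, and at 11.4, 12.5 and 13.2 with IL-6. The 3 groups did not overlap, with IL-4 the lowest and IL-4 #3 the lowest within it. Dusp7 fell with IL-4 to 0.382 of control (log2 fold change −1.48, SE 0.317, adjusted p = 0.0110), in each of the 9 fits without 1 library, and without IL-4 #3 the log2 fold change was −1.06 (adjusted p = 2.34e-04). IL-4 #1, in the set of control, was at 0.506 of the control mean, and the set as a term gave −0.97 (adjusted p = 0.181). It was 1.99-fold higher with IL-6 than with IL-4 (log2 fold change 1.09, SE 0.317, adjusted p = 0.0299). That difference did not pass without Control #3, IL-6 #1, IL-6 #2 or IL-6 #3 (adjusted p 0.0514 to 0.0908), and without IL-4 #3 it was 0.67 (0.00192). Within the set of IL-6, the IL-6 mean was 2.38-fold above that of IL-4 #2 and #3. With IL-6 against control the log2 fold change was −0.39 (SE 0.317, adjusted p = 0.557), with an adjusted p of 0.0242 without IL-4 #3 and a value of 0.38 with the set as a term.

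Dusp6 (MKP-3; chromosome 10, 99263231 to 99267489, plus strand), a widely used readout of ERK activity, stood at 4.74, 4.45 and 5.82 FPKM in control. It was at 3.43, 4.33 and 2.2 with IL-4 and at 7.41, 5.84 and 7.70 with IL-6. All IL-4 libraries lay below and all IL-6 libraries above control, in some cases narrowly. Neither difference from control passed: the log2 fold change was −0.62 for IL-4 (SE 0.249, adjusted p = 0.109) and 0.47 for IL-6 (adjusted p = 0.341). For IL-4 it passed without IL-4 #2 (−0.83, adjusted p = 0.04995). Dusp6 was 2.10-fold higher with IL-6 than with IL-4 (log2 fold change 1.09, SE 0.249, adjusted p = 0.0113), and passed in each of the 9 fits without 1 library and with a set term (1.14, adjusted p = 0.0209).

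Dusp10 and Dusp16 act on JNK and p38. Dusp16 (MKP-7; chromosome 6, 134715468 to 134792625, minus strand) stood at 1.29, 0.954 and 1.26 FPKM in control, at 1.31, 1.14 and 0.710 with IL-4, and at 2.43, 2.32 and 2.59 with IL-6. All IL-6 libraries lay above all others, while control and IL-4 overlapped. It was 2.10-fold higher with IL-6 than in control (log2 fold change 1.02, SE 0.236, adjusted p = 0.0348) and 2.32-fold higher than with IL-4 (1.18, SE 0.236, adjusted p = 0.00603). The difference from IL-4 passed in each of the 9 fits without 1 library and with a set term (1.34, adjusted p = 0.00513). The difference from control passed only without IL-4 #1 or IL-4 #3, and without any 1 of the other 7 libraries its adjusted p was 0.0544 to 0.140. It did not pass with the mouse as a block (0.0644) or the set as a term (1.51, adjusted p = 0.126).

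Dusp10 (MKP-5; chromosome 1, 184013302 to 184075636, plus strand) stood at 0.518, 0.745 and 1.09 FPKM in control, at 1.96, 1.74 and 1.33 with IL-4, and at 0.688, 1.01 and 1.15 with IL-6. All IL-4 libraries lay above the rest, and control and IL-6 overlapped. The lowest control value rests on 55 fragments and the highest IL-4 value on 204. Dusp10 was 2.14-fold higher with IL-4 than in control (log2 fold change 1.04, SE 0.299, adjusted p = 0.0362). The rise did not pass without Control #1, Control #2, IL-4 #1, IL-4 #2, IL-6 #2 or IL-6 #3 (adjusted p 0.0535 to 0.115), with the mouse as a block (0.0558), or with the set as a term (1.27, adjusted p = 0.114). IL-6 against IL-4 gave −0.77 (SE 0.299, adjusted p = 0.0778), and passed without IL-4 #3 (0.0446), with median-ratio rescaling (−0.96, 0.0284) and with quantile normalization (−1.17, 0.0165). A gene on the opposite strand, 1700056E22Rik, overlaps Dusp10 and had a mean of 0.412 FPKM. The kit keeps strand, but the strand setting used for counting is not given in the sources used here.

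Dusp3 (VHR; chromosome 11, 101971143 to 101987013, minus strand) is a small phosphatase of ERK and JNK that lacks the kinase-binding domain of the others. It was the most abundant of the 9 in every library, at 43.6, 37.7 and 43.1 FPKM in control, 43.9, 43.4 and 22.3 under IL-4, and 34.2, 35.2 and 33.9 under IL-6. IL-4 #3 was the lowest of all libraries, and the IL-6 libraries lay just below control. No difference passed: the log2 fold change was −0.24 for IL-4 over control (95% interval −0.81 to 0.32), −0.27 for IL-6 over control (−0.83 to 0.30) and −0.02 between the cytokines (−0.58 to 0.54). Without IL-4 #3, the small differences of IL-6 from control (−0.27, adjusted p = 0.0385) and from IL-4 (−0.34, adjusted p = 0.0130) passed.

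Summed by class, the ERK-selective pair Dusp6 and Dusp7 came to 22.5, 19.7 and 21.7 FPKM in control, 11.7, 11.6 and 5.37 under IL-4, and 18.8, 18.4 and 20.9 under IL-6. The IL-4 libraries lay below the rest. The nuclear group Dusp1, Dusp2, Dusp4 and Dusp5 came to 17.6 ± 1.52 FPKM (SD, n = 3) for control, 31.4 ± 4.39 for IL-4 and 25.7 ± 5.35 for IL-6, with every cytokine library above every control library. The make-up of this nuclear sum differed: Dusp4 gave a mean of 10.3 FPKM of it with IL-4, 1.01 in control and 0.489 with IL-6. Of the total of all 9 genes, Dusp4 was 12.3% with IL-4, 1.23% in control, and 0.591% with IL-6. All 9 together came to 82.3 ± 4.09, 80.2 ± 19.6 and 82.8 ± 4.89 FPKM, differences smaller than the spread between libraries. These sums are descriptions and were not tested.

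**Figure D3:**
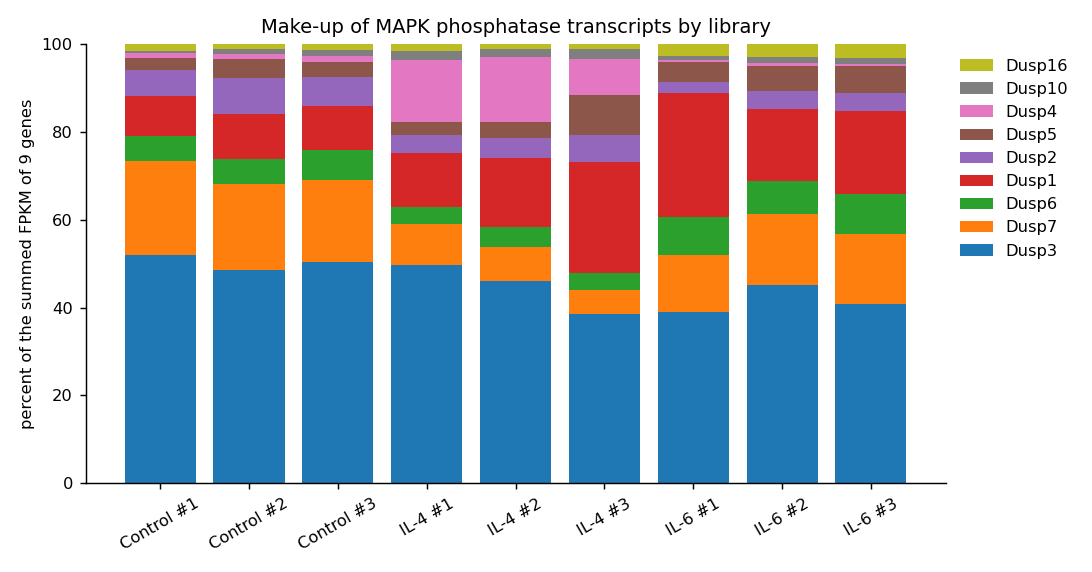
Percent of the summed FPKM of the 9 genes (vertical axis) that each gene makes up, in each of the 9 libraries. Dusp3 is the largest share in every library, from 38.5% to 52.0%, the Dusp4 share is visible in the IL-4 libraries, and the Dusp7 share is smallest there, from 5.47% to 9.31%.

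Over the 9 libraries, the genes most alike in pattern to Dusp4 were Steap3 (Pearson r = 0.997), Mfhas1 (0.996) and Flrt2 (0.994). Those most like Dusp16 were Hif1a (0.992), Crtc3 (0.991) and Caskin2 (0.987), and those most like Dusp7 were 6430548M08Rik (0.996), Cenpo (0.995) and Bcl7a (0.995). These are correlations of log2 FPKM over 9 libraries that share the 3 treatments and, as the numbers were read, mice, given as descriptions.

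The wider MAPK pathway gives the setting of these genes. Of 102 genes in lists of pathway members, 82 were tested, and 32 passed with IL-4 (15 rose and 17 fell, 39.0%), 12 with IL-6 (11 rose and 1 fell, 14.6%) and 30 between the cytokines, beside 24.8%, 8.4% and 34.1% of all genes. Median-ratio rescaling turned the split for IL-4 to 20 that rose and 11 that fell, and quantile normalization to 19 and 16. Among ERK feedback and output genes, 10 of 14 tested rose with IL-4 and 7 of 14 with IL-6, and none fell. Of all genes tested, 8.55% rose with IL-4 and 4.58% with IL-6. With IL-4 they were led by Myc (log2 fold change 2.38), the growth regulator, Spred2 (1.59), an inhibitor of RAS-to-RAF signalling, and Phlda1 (1.56), and with IL-6 by Spred3 (2.00), Fos (1.45), a subunit of AP-1, and Spred1 (1.44). Myc was lower with IL-6 than with IL-4 (−2.85, adjusted p = 5.69e-05), as Dusp4 was.

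Among MAP kinases themselves, the substrates of the DUSPs, 4 of 10 tested fell with IL-4 and none rose (3 fell with median-ratio rescaling). Beside this list and those below, 16.3% of all genes tested fell with IL-4 and 8.55% rose. The MAP kinases that fell included Mapk11 (p38β, −1.73, adjusted p = 0.00103), Mapk13 (p38δ, −1.18, not passing with median-ratio rescaling, 0.109, or quantile normalization, 0.138) and Mapk7 (ERK5, −1.13). With IL-4, Mapk11 rests on only 11 to 22 fragments a library, and a pseudocount of 1 gave it a log2 fold change of −0.65. Mapk11 rose with IL-6 (1.55, adjusted p = 0.00491), but did not pass with quantile normalization (0.0542). Mapk3, the gene of ERK1 and named here as a substrate of Dusp6 and Dusp7, did not pass with IL-4 (−0.51, adjusted p = 0.0525), but passed with the mouse as a block (0.0438), with quantile normalization (0.00249) and without IL-4 #3 (0.00300). With median-ratio rescaling its adjusted p was 0.390. Among MAP3 kinases, 5 of 14 fell with IL-4 and 1 rose (3 and 1 with median-ratio rescaling), with Map3k8 (TPL2, the kinase that drives ERK downstream of Toll-like receptors) at −1.43 and Map3k5 (ASK1) at −1.24. Of 10 MAPK-activated kinases, 4 fell with IL-4, among them Mknk2 (−1.22), and with IL-6 Mapkapk2, the kinase that acts below p38, rose (0.61). Of RAS activators, Gab1, the adaptor of receptor signalling, fell with IL-4 (−1.03) and rose with IL-6 (1.16). Among other phosphatases, Ptpn7, a tyrosine phosphatase of ERK and p38, rose with IL-4 (0.72), and 2 of 8 atypical DUSPs tested did, Dusp23 (1.14) and Dusp19 (0.74). When a term for the set was fitted, 11 of the pathway genes passed with IL-4 and 0 with IL-6. Of the genes named, Mapk13 passed with IL-4 in 3 of the 9 fits without 1 library, Map3k8 and Dusp19 in 8, and with IL-6 Spred3 passed in 5 and Spred1 in 4. Without IL-4 #3, 25 passed with IL-6, 6 passed without Control #2, Control #3, IL-6 #1 or IL-6 #3, and 7 without IL-6 #2.

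**Figure D4:**
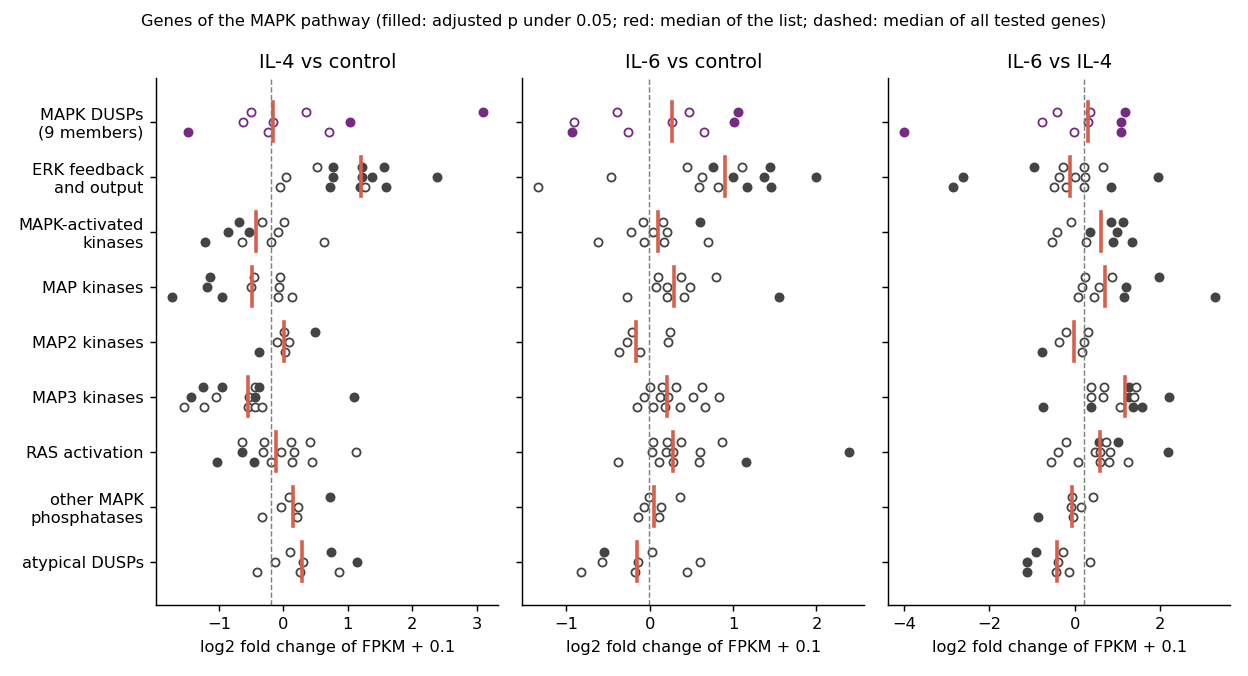
Log2 fold change of FPKM + 0.1 (horizontal axis) of each tested gene in lists of the MAPK pathway, filled where the adjusted p was under 0.05. Red lines give the median of a list and the dashed line that of all tested genes. The median of the ERK feedback and output genes was 1.21 with IL-4 and 0.91 with IL-6, to the right of the other lists in those panels.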

How the data were processed

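Gene-level RNA-seq values of 9 libraries were used, 3 per group. The authors deposited FPKM, made per the study's methods with STAR 2.4.2a on GRCm38 and Cufflinks 2.2.1 with GENCODE annotation, and the values were used as they stand. Gene IDs were matched to GENCODE M21, which 50604 of 53379 (94.8%) matched with their version. Low FPKM values are whole multiples of 1 fragment: of 183346 values above 0, 100.0% came out whole within 0.05. Fragment numbers and library totals were read from these steps, and an alternative test, limma voom, used them. Dusp1 coordinates are RefSeq's on GRCm38.p6, since its ID version differs from M21.

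Log2(FPKM + 0.1) of the 12824 genes averaging 0.5 FPKM or more was fitted in R 4.3.3 with limma 3.58.1 (3 groups in 1 fit, trend and robust), with Benjamini-Hochberg adjustment. Python 3.11.15 with pandas 2.3.3, scipy 1.17.1 and matplotlib 3.10.9 made summaries and plots. The fit was tested on simulated data. Those data held neither an outlying library nor the division into sets, so that test does not bear on either. All 9 genes are described, and from each pathway list the 3 passing genes with the largest change are named, with Mapk3 added after its values were seen. The members and lists were chosen with earlier results of these data known.

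Same-numbered libraries were taken to come from the same mouse, from the numbers in the titles and column headers. The correlation of their deviations from the group means for mice #1, #2 and #3 was 0.521, −0.415 and 0.0777 for IL-4 with Control, 0.408, 0.201 and 0.166 for IL-6 with Control, and 0.281, −0.0612 and 0.153 for the 2 cytokines. Differently numbered libraries gave −0.593 to 0.584, −0.341 to 0.176 and −0.282 to 0.159 in the same order. For IL-4 with Control, the same number thus did not mark the closest libraries. Precision at low levels is limited by counting, which was 37 to 204 fragments for Dusp4 outside IL-4 and for Dusp10. These fragment numbers speak to counting error alone, while the SEs and intervals above come from the spread between libraries. The alternatives were other pseudocounts and filters, rescaling, quantile normalization, a fit of 2 groups only, the replicate block, the set of libraries as a term, voom, a fold rule, and leaving out each library.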

Additional observations from a re-analysis of the deposited data

How the results depend on the processing

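Of 525 refits of the 9 genes' log2 fold changes, 459 kept their direction and side of the threshold, 44 lost and 18 gained the threshold, and 4 changed sign (a change smaller than its SE was given no direction), all with a term for the set of libraries: Dusp3 (0.23), Dusp5 (−0.044) and Dusp7 (0.38) for IL-6 against control, and Dusp5 for IL-4 (−0.12). The set term is estimated from the IL-4 libraries alone, IL-4 #3 among them. Dusp13 for IL-4 also changed sign with that term (−0.022), and Map2k7 for IL-6 against IL-4 did with median-ratio rescaling (−0.026) and quantile normalization (−0.02). For IL-4 against control, the 3 passing genes became 1 at a mean FPKM of at least 5, where 4 of the 9 are tested, and 1 with the set term. For IL-6 against control, the 3 became 0 with no filter, 1 at a mean of at least 5, 6 with only the groups compared, 1 with the replicate block, 0 with the set term, and 0 to 7 without 1 library, the 7 being without IL-4 #3. With the replicate block, which pairs libraries of the same number, the rises of Dusp1 and Dusp16 with IL-6 and of Dusp10 with IL-4 were lost, and no other call of the 9 genes changed. Between IL-6 and IL-4, the 4 became 2 at a mean of at least 5, where fewer genes are tested, 6 with median-ratio rescaling, 6 with quantile normalization, and 3 to 6 without 1 library, the 6 being without IL-4 #3. Of the pathway genes, the 32 for IL-4 became 17 with only the groups compared, 11 with the set term and 16 with the added demand of a log2 fold change of 1 or more. The 12 for IL-6 became 6 at a mean of at least 5, 22 with only the groups compared, 0 with the set term and 6 to 25 without 1 library. The 30 between cytokines became 18 with the fold rule. Median-ratio rescaling moved the median of all genes for IL-4 against control from −0.20 to −0.01, and the split of passing genes from 1096 higher and 2090 lower to 1574 and 1618. Between IL-6 and IL-4 the split went from 2671 and 1704 to 2280 and 2205. The cause of these changes was not tested.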

Other observations

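Other classical members of the family were detected at low levels. Dusp8, a phosphatase of JNK and p38, stood at 0.267 to 0.357 FPKM in control, 0.0875 to 0.210 with IL-4 and 0.107 to 0.153 with IL-6, on 17 to 61 fragments a library. All control values of Dusp8 lay above all values with a cytokine. Dusp9, an ERK phosphatase of placenta and liver, stood at 0.263 to 0.539, 0.473 to 0.571 and 0.105 to 0.315 FPKM, on 10 to 62 fragments. Styxl1, which lacks catalytic activity, stood at 0 to 0.146 FPKM over the 9 libraries. All 3 had means under the filter of 0.5 FPKM and were not tested.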
